A study of Mus musculus with 48 samples.

Results

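The clustered protocadherins were followed through cerebral cortex RNA-seq of 48 mice. Every gene whose name in the deposited count table is that of an alpha, beta or gamma clustered protocadherin was taken, which gave 59 of 48795 genes, 14 in the alpha cluster, 22 in the beta cluster and 23 in the gamma cluster. The 59 genes carry 56 distinct names, because Pcdha11, Pcdhga8 and Pcdhgb8 each name a pair of gene IDs. The mice were C57BL/6 animals of both sexes aged 6 months. The groups were Q140 X Msh3-/- (8 mice), Q140 X Msh3+/- (8), Q140 (8), Msh3-/- (8), Msh3+/- (9) and WT (7), with 24 males and 24 females in all. Q140 stands for a heterozygous knock-in allele that models Huntington's disease by placing a long CAG repeat in the mouse Htt gene, and it is carried in the germ line, so every cell type of the cortex has it. Msh3 encodes a mismatch repair protein that acts on small insertion and deletion loops, and the labels give its allele as heterozygous or homozygous without saying how it was made. The series set the Q140 mice against their counterparts without the knock-in on each Msh3 background, and the Msh3 genotypes against each other.

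Clustered protocadherins are adhesion proteins of the neuronal surface. Each alpha or gamma gene has a variable first exon with its own promoter, spliced to constant exons that all genes of the cluster share, whereas each beta gene is a single large exon with no constant part. A single neuron uses a limited choice of these promoters, and CTCF and cohesin loop the chosen promoter to a distant enhancer, so that neighbouring neurons carry different combinations. The proteins bind their own kind across membranes, and this recognition serves the self-avoidance of dendrites and axons of the same neuron. The C-type genes Pcdhac1, Pcdhac2, Pcdhgc3, Pcdhgc4 and Pcdhgc5 stand apart from the stochastic choice and are used broadly by many neurons.

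Library totals ran between 35946572 and 64479357 counts, and 20010 genes passed the filter on low counts. Htt counts did not differ past the threshold in any comparison (6-genotype adjusted p = 0.947, edgeR quasi-likelihood test). Msh3 averaged 113 ± 6.74 CPM (counts scaled to library size) in Q140 X Msh3-/- and 109 ± 7.91 CPM in Msh3-/-, 66.5 ± 4.17 CPM in Q140 X Msh3+/- and 67.4 ± 5.11 CPM in Msh3+/-, against 23.7 ± 1.36 CPM in Q140 and 24.2 ± 1.06 CPM in WT (SD). Its counts therefore separated the Msh3 labels in every library but went against a reading of the labels as loss of Msh3 RNA, and the genotype names below are the labels' own. The 10 deep-layer cortical neuron markers summed to 318 to 442 CPM in males and 312 to 438 CPM in females. The 8 striatal projection neuron markers summed to 170 to 208 CPM in males and 167 to 236 CPM in females. With no other tissue to set beside them, these sums do not test the cortical label. The libraries Msh3-/- F3, Msh3-/- F4 and WT M3 carried choroid plexus RNA, and Q140 M1, Q140 X Msh3-/- M4 and Msh3+/- M2 lay apart on the second principal component (F and M give the sex and replicate number).

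All members with coordinates in the GENCODE M21 annotation (58 of 59) lie on mouse chromosome 18 of the GRCm38 build. The alpha genes span 36930184 to 37187661, the beta genes 37264938 to 37524479 and the gamma genes 37661793 to 37841873. The shared constant exons bear on every level below. A beta gene had 90.3% to 100% of its exon bases to itself, while an alpha gene had a median of 46.4% and a gamma gene a median of 55.3%. FPKM, a count scaled by library size and exon length, divides by the full exon length, constant exons included, so levels were also taken as CPM per kilobase of a gene's own bases. The gene ID ENSMUSG00000023036, which the table calls Pcdhga8, is Pcdhgc4 in GENCODE M21 and is written as Pcdhga8 (ENSMUSG00000023036) here.

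Of the 5 C-type genes, 3 stood at the top of the members. Pcdhgc5 had the highest level of all members at 18.3 ± 1.13 FPKM, followed by Pcdhgc3 at 12.4 ± 0.634 FPKM and Pcdhac2 at 8.49 ± 0.519 FPKM (SD, n = 48). Per kilobase of own bases these 3 kept that order, at 30.4, 20.1 and 16.5 CPM. Their ranges over mice did not meet, with Pcdhgc5 between 16.3 and 21.4 FPKM, Pcdhgc3 between 11.02 and 13.4 FPKM and Pcdhac2 between 6.87 and 9.73 FPKM. The other C-type genes were lower, with Pcdhac1 at 0.859 ± 0.0997 FPKM and Pcdhga8 (ENSMUSG00000023036) at 2.06 ± 0.166 FPKM. Pcdhac2 made up 52.5% of the alpha cluster's counts, and Pcdhgc5 and Pcdhgc3 made up 31.1% and 15.1% of the gamma cluster's counts.

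By FPKM, the highest alpha gene under promoter choice lay below the highest beta and gamma genes under that choice. Pcdha12 averaged 1.90 ± 0.218 FPKM and Pcdha5 1.02 ± 0.132 FPKM, and Pcdha4 was the lowest alpha gene at 0.0958 ± 0.0277 FPKM. Only 8.56% of the exon bases of Pcdha4 are its own, and per kilobase of own bases it ranked 10 of 14 while Pcdha8 was last. On that measure the distance to the beta genes was smaller. Pcdha12 had 4.10 CPM per kilobase of own bases, beside 4.82 for Pcdhb9, 4.205 for Pcdhb17 and 3.82 for Pcdhb20, while Pcdhga11 had 8.97. The beta genes were led by Pcdhb9 at 4.82 ± 0.418 FPKM, Pcdhb17 at 4.20 ± 0.235 FPKM and Pcdhb20 at 3.82 ± 0.256 FPKM, and the ranges of Pcdhb17 (3.72 to 4.76 FPKM) and Pcdhb20 (3.25 to 4.35 FPKM) overlapped. In the gamma cluster Pcdhga11 came after Pcdhgc5 and Pcdhgc3, at 4.97 ± 0.483 FPKM. The members left out by the filter on low counts were Pcdhb1 with a mean of 2.54 counts per library, Pcdhgb8 (ENSMUSG00000103081) with 3.15, and Pcdhgb8 (ENSMUSG00000109483), listed at 0 in all 48 libraries. The 56 tested members were 14 alpha, 21 beta and 21 gamma genes.

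**Figure D1:**
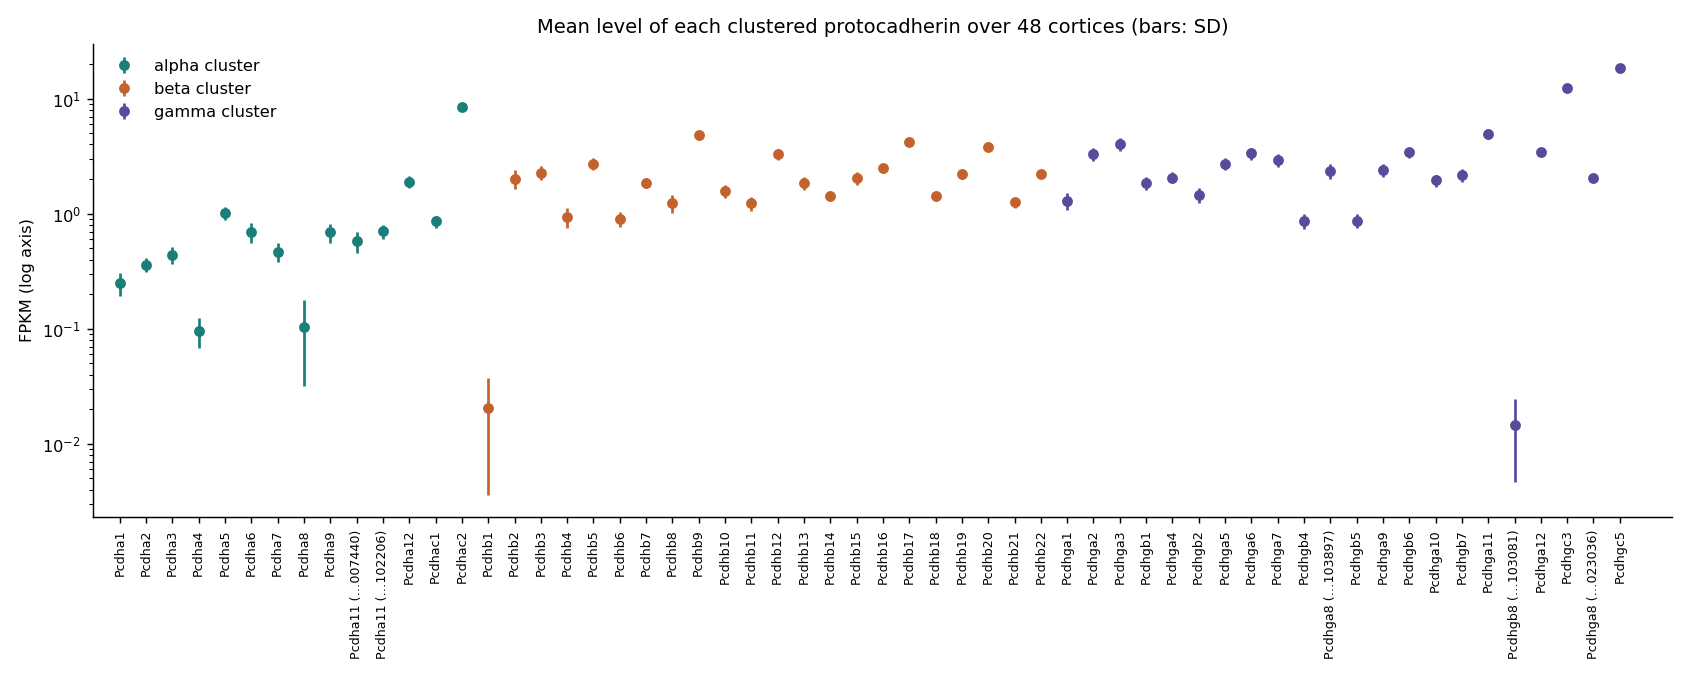
Mean FPKM of each clustered protocadherin over 48 cortices on a log axis, in the order of the genes along the chromosome, with bars for the SD over mice and the last 6 digits of the gene ID where a name occurs more than once. Pcdhgc5, Pcdhgc3 and Pcdhac2 sit above all others, at 18.3, 12.4 and 8.49 FPKM, and the 1 gene at 0 in all libraries is not drawn.

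The summed levels of the clusters lay close together in all genotypes. The alpha genes summed to 96.1 ± 4.45 CPM in Q140 X Msh3-/-, 94.4 ± 4.86 CPM in Q140 X Msh3+/-, 95.4 ± 4.18 CPM in Q140, 92.8 ± 5.48 CPM in Msh3-/-, 97.4 ± 6.98 CPM in Msh3+/- and 94.6 ± 7.76 CPM in WT (SD). The beta genes summed to 193 ± 10.8, 191 ± 8.12, 190.1 ± 11.4, 188 ± 9.65, 194 ± 14.5 and 191 ± 7.38 CPM in the same groups. The gamma genes summed to 448 ± 11.8, 443 ± 11.1, 454 ± 16.5, 445 ± 17.6, 457 ± 23.6 and 452 ± 22.5 CPM in the same groups. For every cluster the ranges of all 6 groups overlapped.

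**Figure D2:**
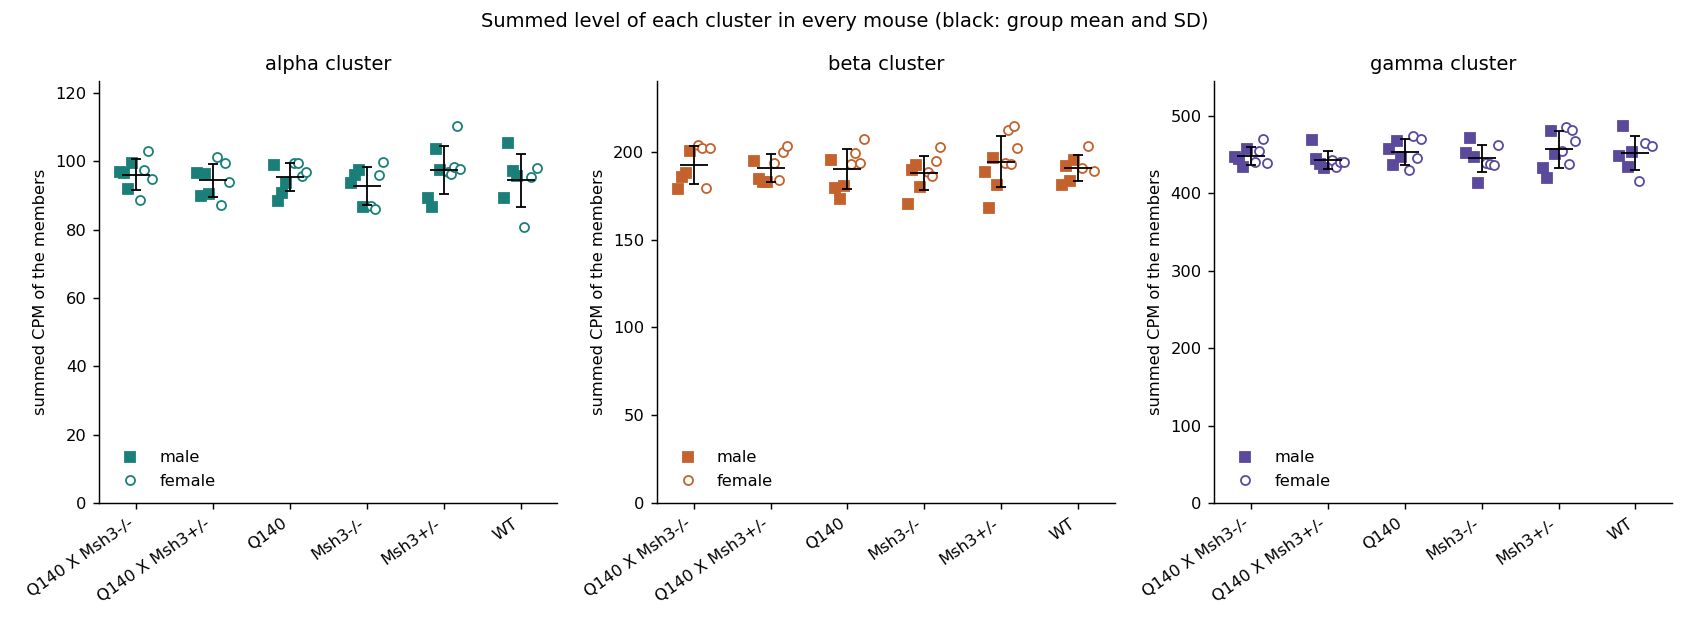
Summed CPM of the members of each cluster in every mouse, by genotype, with filled squares for males and open circles for females and black bars for the mean and SD of each genotype. The 6 genotypes overlap in each cluster, and in the beta cluster the male squares lie mostly below the female circles.

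With the Q140 allele, 0 of 56 members were called at an adjusted p under 0.05 (edgeR quasi-likelihood test, Benjamini-Hochberg over 20010 genes) in Q140 against WT, where 0.01% of all tested genes were called. The count was also 0 in Q140 X Msh3+/- against Msh3+/- (0.015% of all genes) and in Q140 X Msh3-/- against Msh3-/- (0%). At an unadjusted p under 0.05 the counts were 2, 4 and 2 members, where 5.48%, 6.2% and 6.8% of all genes passed. The median log2 fold changes of the alpha, beta and gamma clusters were -0.02, -0.01 and 0.02 in Q140 against WT, beside 0.0019 over all tested genes. In Q140 X Msh3+/- against Msh3+/- they were -0.01, -0.03 and -0.05, beside -0.0026 over all genes. In Q140 X Msh3-/- against Msh3-/- they were 0.04, 0.03 and 0.04, beside -0.0026 over all genes. Of the 21 gamma genes 7, 18 and 5 were below 0 in these comparisons, and of all 56 members 30, 38 and 15 were. Of all tested genes 50.9%, 48.5% and 48.7% were above 0.

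The smallest p values of these comparisons were those of Pcdhga3, Pcdhgb1 and Pcdha9, in that order of the comparisons. Pcdhga3 ran from 3.67 to 5.67 FPKM with a median of 4.01 in Q140, against 3.24 to 4.20 FPKM with a median of 3.79 in WT, and the mice of both groups overlapped. Its log2 fold change was 0.22 ± 0.085 (SE, adjusted p = 0.892). Pcdhgb1 had 1.83 to 2.43 FPKM (median 2.10) in Q140 X Msh3+/-, against 1.44 to 2.28 FPKM (median 1.68) in Msh3+/-, a log2 fold change of 0.21 ± 0.080 (adjusted p = 0.78). Pcdha9 had 0.579 to 0.972 FPKM (median 0.859) in Q140 X Msh3-/-, against 0.370 to 0.873 FPKM (median 0.696) in Msh3-/-, a log2 fold change of 0.31 ± 0.12 (adjusted p = 0.685). None of these passed the threshold.

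The Msh3 genotype gave the same count of 0 of 56. In Msh3+/- against WT 0.025% of all genes were called, and in Msh3-/- against WT 0.035%. In Q140 X Msh3+/- against Q140 the share was 0.02%, and in Q140 X Msh3-/- against Q140 0.045%. At an unadjusted p under 0.05 the members passing were 1, 4, 4 and 3 in these comparisons, where 9.5%, 5.73%, 5.14% and 9.07% of all genes passed. DESeq2 and limma also called 0 members in every comparison between genotypes. The smallest p values were those of Pcdhb6 in Msh3+/- against WT (log2 fold change -0.20 ± 0.097, adjusted p = 0.521), Pcdha12 in Msh3-/- against WT (-0.22 ± 0.075, adjusted p = 0.807), Pcdhgb1 in Q140 X Msh3+/- against Q140 (0.20 ± 0.082, adjusted p = 0.96) and Pcdha9 in Q140 X Msh3-/- against Q140 (0.33 ± 0.12, adjusted p = 0.381). Pcdha12 had 1.52 to 2.04 FPKM (median 1.66) in Msh3-/-, against 1.75 to 2.39 FPKM (median 1.85) in WT, and these groups overlapped. The comparisons against WT share the WT mice, and those against Q140 share the Q140 mice. The medians of the alpha, beta and gamma clusters were -0.03, 0.02 and 0.01 in Msh3+/- against WT and -0.04, -0.02 and -0.04 in Msh3-/- against WT, beside 0.0013 and -0.0014 over all genes, with 27 and 40 of 56 members below 0. They were -0.0024, 0.02 and -0.08 in Q140 X Msh3+/- against Q140 and 0.03, 0.02 and -0.03 in Q140 X Msh3-/- against Q140, beside -0.0019 and -0.0073 over all genes, with 33 and 25 of 56 members below 0. The sign of the medians was thus not shared by the comparisons. In the same order of comparisons, 50.7%, 49.2%, 48.8% and 46.6% of all tested genes were above 0.

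The Q140 effect was then compared between Msh3 backgrounds. No member was called, 0 of 56, in the Q140 effect in Msh3+/- minus that with unaltered Msh3 (0% of all genes), nor in the Q140 effect in Msh3-/- minus that with unaltered Msh3 (0% of all genes), and 1 member had an unadjusted p under 0.05 in each. Pcdhb6 was this member, and had the smallest p, with differences of 0.29 ± 0.14 (adjusted p = 0.765) and 0.30 ± 0.14 (adjusted p = 0.922). Pcdhb6 ran from 0.665 to 1.06 FPKM in Q140 with a median of 0.890, against 0.865 to 1.23 FPKM in WT with a median of 0.965. In the test of any difference among the 6 genotypes 0 of 56 members were called, where 0.105% of all genes were, and 3 members had an unadjusted p under 0.05, namely Pcdhgb1 (adjusted p = 0.557), Pcdha12 (adjusted p = 0.586) and Pcdha9 (adjusted p = 0.649). Over the 9 comparisons between genotypes 483 of 504 member values lay within 0.25 log2 units of 0, and the median SE of a member ran from 0.082 to 0.12 log2 units.

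Some members differed between the sexes. In males against females 10 of 56 members were called, 9 lower and 1 higher in males, while 5.56% of all 20010 tested genes were called, 2.83% lower and 2.73% higher in males. The beta cluster held 7 of the 9 lower members, Pcdhb2, Pcdhb3, Pcdhb5, Pcdhb6, Pcdhb8, Pcdhb9 and Pcdhb15, and the others were Pcdha8 of the alpha cluster and Pcdhga5 of the gamma cluster. Pcdhgb7 of the gamma cluster was the member that was higher in males. Mice that share a stem in the deposited column names were all of the same sex. The sexes were thus compared between stems and never within a stem, and differences between stems were not separated from sex.

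Pcdhb2, the beta gene nearest the alpha cluster among those tested, had the smallest p. It ran from 3.87 to 6.11 CPM with a median of 4.85 in 24 males, against 4.86 to 8.20 CPM with a median of 6.47 in 24 females. All 24 males lay below the female median, 12 of them below every female, and 16 females lay above every male. The male mean was 0.762 of the female mean, and the log2 fold change was -0.40 ± 0.058 (SE, adjusted p = 8.86e-06, edgeR). Pcdhb2 was lower in males in all 6 genotypes, with within-genotype differences between -0.26 and -0.57 log2 units.

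Pcdha8, a low and variable alpha gene with a mean of 26.4 counts per library, had the largest fold change of the called members. It ran from 0.102 to 0.846 CPM with a median of 0.325 in males, against 0.0762 to 1.74 CPM with a median of 0.746 in females. The lowest library of all was a female, 9 females lay above every male, and 23 of 24 males lay below the female median. The log2 fold change was -1.33 ± 0.22 (adjusted p = 7.43e-05), and males were lower in 6 of 6 genotypes, by -0.61 in WT and by -0.96 to -1.74 in the others. Its biological coefficient of variation, the spread between mice left after sampling noise, was 0.466, against a median of 0.145 for the alpha cluster and 0.0858 for all tested genes.

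**Figure D3:**
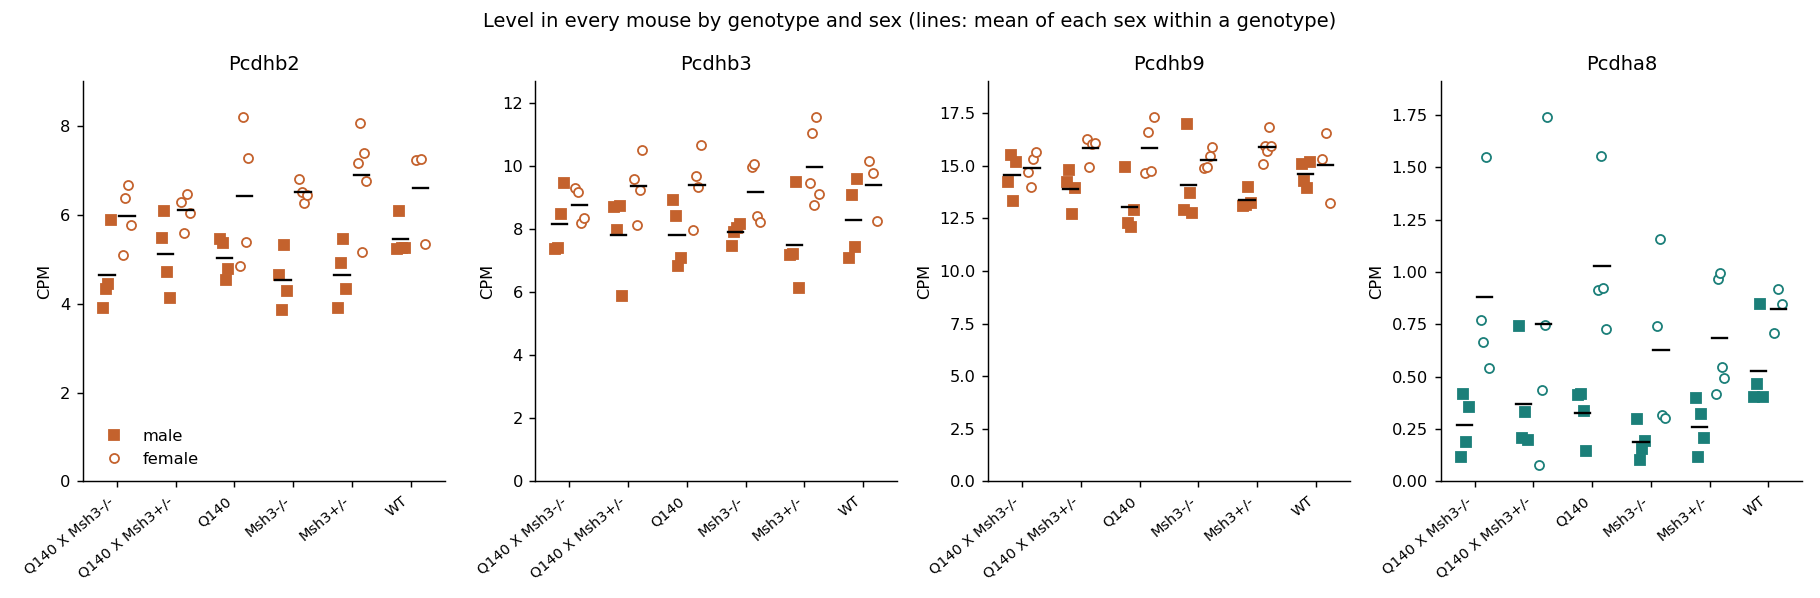
CPM of Pcdhb2, Pcdhb3, Pcdhb9 and Pcdha8 in every mouse by genotype, with filled squares for males left of open circles for females and black lines for the mean of each sex within a genotype. The male mean lies below the female mean in all 6 genotypes for each of these 4 genes.

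The other beta genes differed less. Pcdhb3 had 5.88 to 9.57 CPM (median 7.94) in males, against 7.97 to 11.5 CPM (median 9.31) in females, and 13 of 24 males lay below every female (log2 fold change -0.24 ± 0.050, adjusted p = 0.0016). Pcdhb9, the beta gene of the highest level, had 12.1 to 16.97 CPM (median 13.9) in males, against 13.2 to 17.3 CPM (median 15.6) in females (log2 fold change -0.15 ± 0.031, adjusted p = 0.00169). Pcdhb15 had 3.995 to 6.46 CPM (median 5.18) in males, against 4.98 to 7.32 CPM (median 6.35) in females (log2 fold change -0.21 ± 0.047, adjusted p = 0.00439). The sexes overlapped in all 3 genes. Males were lower in 6 of 6 genotypes for each of the 7 called beta genes.

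The remaining calls lay near the threshold. Pcdhb6 had an adjusted p of 0.0157 and Pcdhb5 of 0.0258, with log2 fold changes of -0.21 and -0.16. Pcdhga5 had a log2 fold change of -0.16 (adjusted p = 0.0309), Pcdhb8 of -0.22 (adjusted p = 0.0461) and Pcdhgb7 of 0.15 (adjusted p = 0.0482). Just outside were Pcdhb16 (adjusted p = 0.0503, log2 fold change -0.11) and Pcdha9 (adjusted p = 0.0506, log2 fold change 0.21). Of 19 alternative settings, Pcdhb8 lost its call in 14, Pcdhga5 in 12, Pcdhgb7 in 10, Pcdhb5 in 4 and Pcdhb6 in 2. Pcdhb2, Pcdhb3, Pcdhb9 and Pcdhb15 were called in all 19, and Pcdha8 in all 18 that tested it.

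Of the 7 called beta genes, 6 lay in the first stretch of the cluster. From Pcdhb2 to Pcdhb11, 10 of 10 genes had a negative log2 fold change in males against females, and these 6 were called, with a median of -0.18. From Pcdhb12 to Pcdhb22, 9 of 11 were negative and 1 was called, with a median of -0.03. Of all tested genes 51.3% were above 0 and 2.83% were called lower in males. This division of the cluster was chosen after the values were seen and was not tested. The first stretch summed to 62.1 ± 3.91 CPM in males and 70.5 ± 5.01 CPM in females, and the second to 123 ± 5.90 CPM in males and 127 ± 5.76 CPM in females (SD, n = 24 each). The median log2 fold changes were -0.11 for the beta cluster, -0.06 for the alpha cluster and 0.01 for the gamma cluster, beside 0.0019 over all genes.

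**Figure D4:**
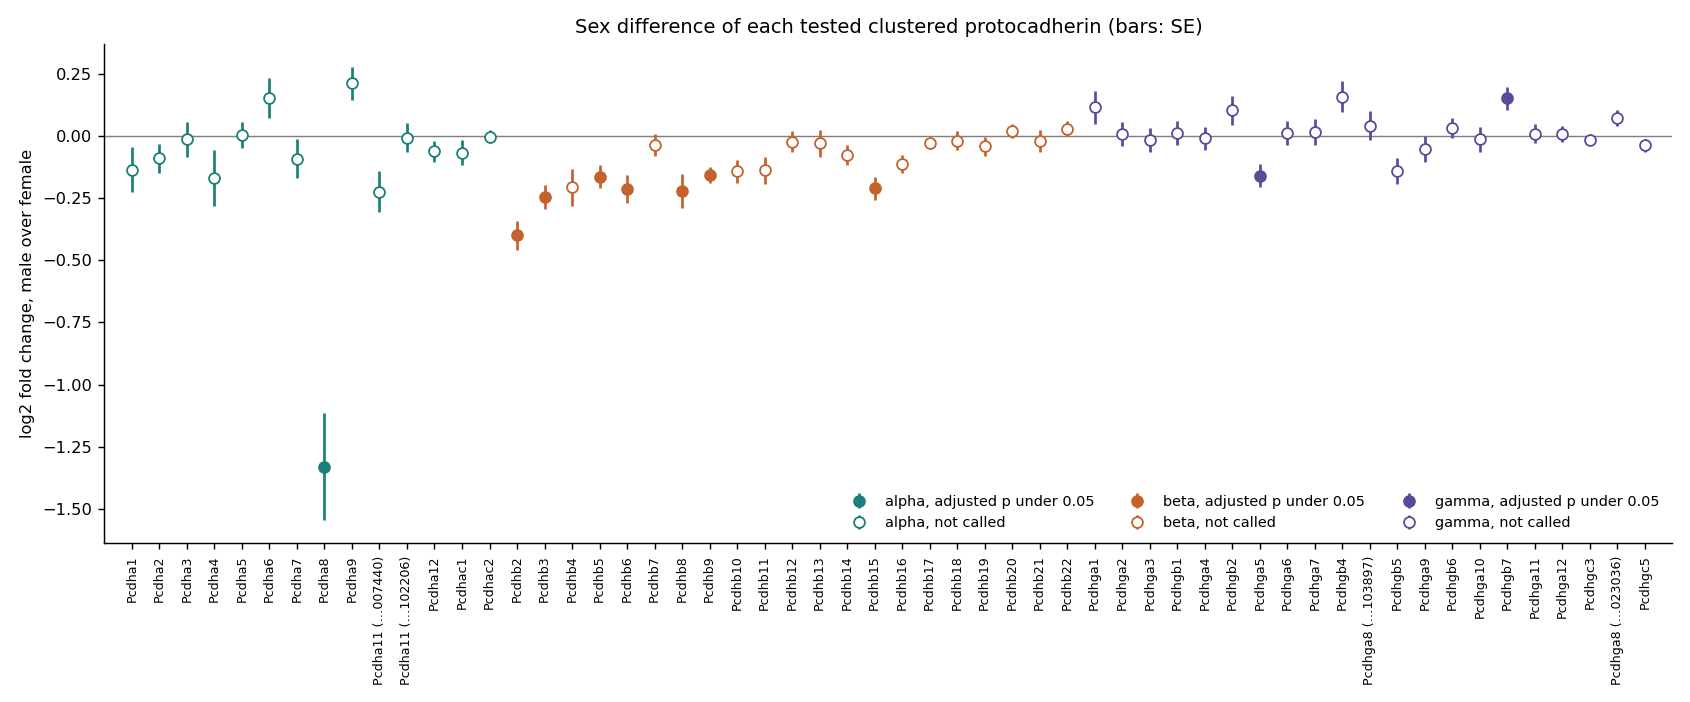
Log2 fold change of each of the 56 tested members in males over females, in the order of the genes along the chromosome, with bars for the SE and filled points for an adjusted p under 0.05. Pcdhb2 to Pcdhb11 all lie below 0, Pcdha8 lies lowest at -1.33, and the gamma genes scatter around 0.

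The size of the sex difference was also compared between genotypes. In a fit with a term for each genotype and sex, 0 of 56 members were called for the genotype-by-sex term, and 4 had an unadjusted p under 0.05, with a smallest adjusted p of 0.928 (edgeR). Of all 20010 genes 0% were called for this term, and 970 had an unadjusted p under 0.05. Since males and females were spread over 6 columns of the 96-well plate, male minus female was also taken within each column. Pcdhb2 was lower in males in 6 of 6 columns, between -0.61 and -0.28 log2 units, and Pcdha8 in 6 of 6, between -1.60 and -0.70. Pcdhb3, Pcdhb6, Pcdhb8, Pcdhb9, Pcdhb15 and Pcdhga5 were lower in 6 of 6 columns, Pcdhb5 in 5 of 6, and Pcdhgb7 was higher in 5 of 6.

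Some markers of other cell types were called between the sexes, where 5.56% of all genes were. Of 8 astrocyte markers, Aldh1l1 and S100b were lower in males (log2 fold changes -0.11 and -0.10) and Gja1 was higher (0.08). All 9 oligodendrocyte markers lay below 0 in males with a median of -0.11, though 0 were called, and they summed to 1370 to 2459 CPM in males and 1555 to 2642 CPM in females. Of 8 striatal projection neuron markers, Drd1 was higher in males (0.23). In the lists for cortical layer neurons, GABAergic interneurons, microglia and vascular and meningeal cells 0 markers were called. Of 10 deep-layer neuron markers 9 lay above 0 in males, with a median of 0.07, and of 8 upper-layer neuron markers 3 did. The 7 tested choroid plexus markers had a median of -0.46 with 0 called, and without the 3 libraries that carried this RNA 9 members were called. In the edgeR test of any difference among the 6 genotypes, 2 of these markers were called, where 0.105% of all genes were. They were Ttr (adjusted p = 0.00016) and Clic6 (adjusted p = 0.0392). The part of the glial and neuronal markers in the sex difference of the members was not tested. In bulk tissue, fewer cells of a type and less RNA per cell cannot be told apart.

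Once the means of genotype and sex were taken out, members of a cluster varied together only weakly over the 48 mice. The median Pearson r of a pair was 0.17 in the beta cluster (jackknife SE 0.053), 0.14 in the gamma cluster (SE 0.041) and 0.096 in the alpha cluster (SE 0.071), beside -0.0011 over all pairs of tested genes. Pairs from different clusters had medians of 0.095 to 0.104, so the alpha value was like theirs. All of these are descriptions over mice that share library preparation and scaling. The highest pairs were Pcdhb3 with Pcdhb5 (r = 0.64, rho = 0.646) and Pcdhb2 with Pcdhb3 (r = 0.598, rho = 0.608). The lowest were Pcdhgb4 with Pcdhga8 (ENSMUSG00000023036) (r = -0.419) and Pcdhga3 with Pcdhga8 (ENSMUSG00000023036) (r = -0.393).

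Neighbouring genes had a higher median r than genes further apart in the same cluster. In the beta cluster the 20 neighbouring pairs had a median r of 0.333 and the 190 other pairs 0.161, in the alpha cluster the values were 0.238 and 0.0869, and in the gamma cluster 0.216 and 0.131. The beta genes at the ends of the cluster formed a pair of blocks, which were picked out after the matrix was seen. Within Pcdhb2 to Pcdhb6 the 10 pairs had a median r of 0.478 and a range of 0.307 to 0.64, and within Pcdhb17 to Pcdhb22 the 15 pairs had a median of 0.351 and a range of -0.104 to 0.488. Between the blocks the 30 pairs had a median of -0.0026. Within Pcdhb7 to Pcdhb16, the stretch in the middle, the 45 pairs had a median of 0.152 and a range of -0.284 to 0.442. For the 2 end blocks and the pairs between them, the medians within males alone were 0.57, 0.325 and 0.088. Within females alone they were 0.498, 0.293 and -0.097. These are the mice from which the blocks were picked, so the values by sex are no separate check of them. The block of Pcdhb2 to Pcdhb6 overlaps the stretch where the beta genes were lower in males, although the sex means had been removed.

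**Figure D5:**
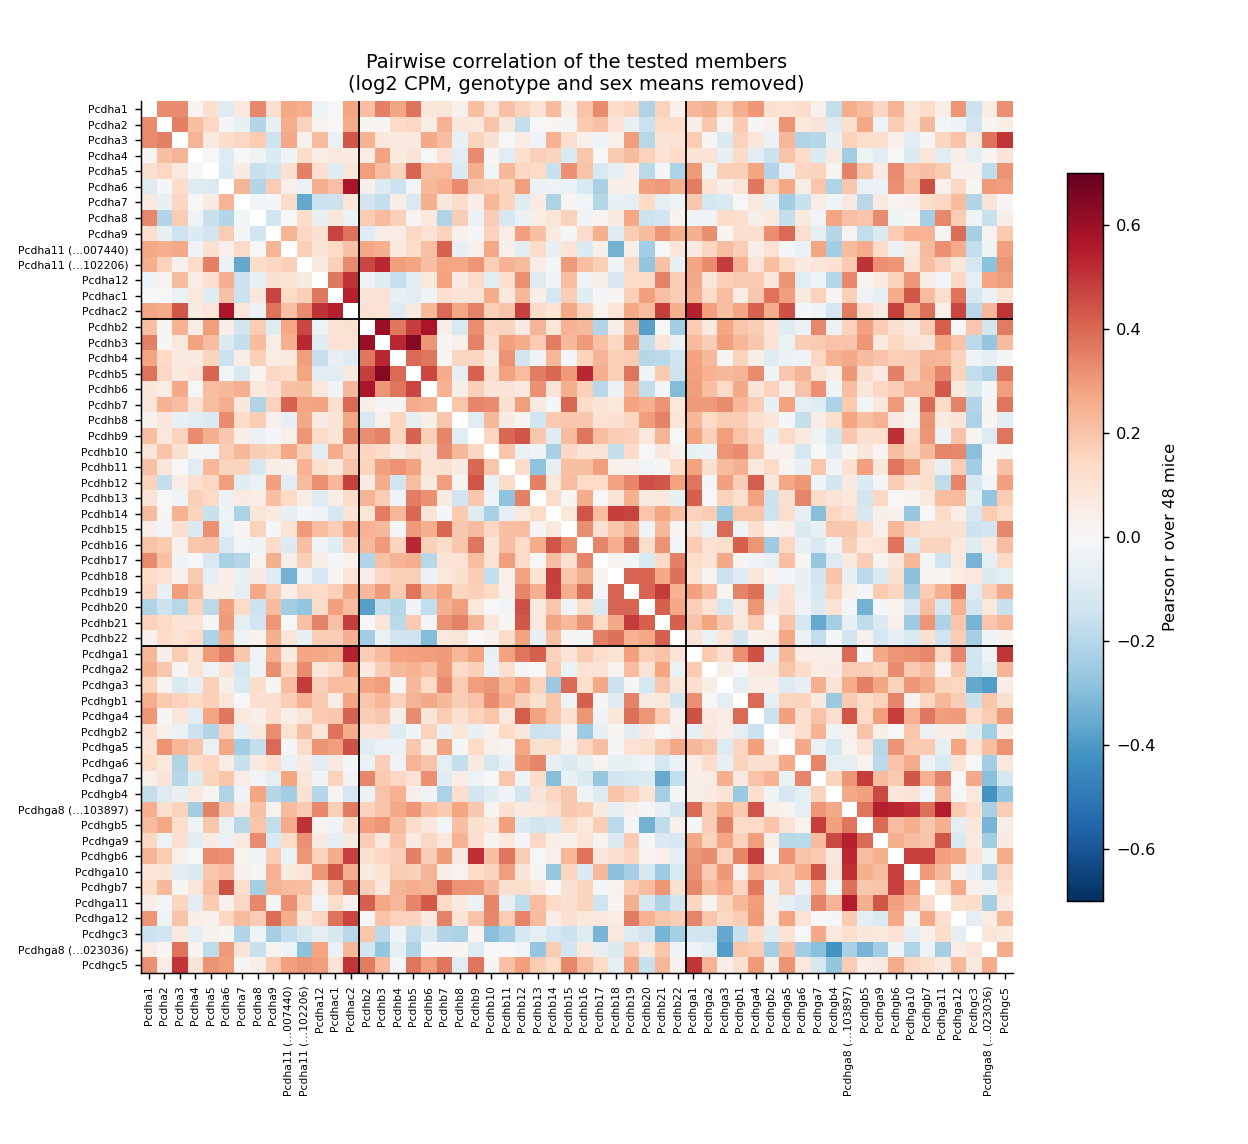
Pearson r between all pairs of the 56 tested members over 48 mice, from log2 CPM with genotype and sex means removed, in the order of the genes along the chromosome with black lines between the alpha, beta and gamma clusters. The darkest block holds Pcdhb2 to Pcdhb6, with a median r of 0.478, and the diagonal is left blank.

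Summed levels were compared between the clusters, where single pairs had a median r of 0.104 for alpha with gamma, 0.095 for beta with gamma and 0.0958 for alpha with beta. A sum averages out part of the noise of its genes, so its r is not comparable with that of single pairs. The sums weigh genes by their counts and so lean on a few C-type genes. Pcdhac2 made up 52.5% of the alpha counts, and Pcdhgc5 and Pcdhgc3 31.1% and 15.1% of the gamma counts. The alpha and gamma sums had r = 0.674 (rho = 0.603), the beta and gamma sums r = 0.471 (rho = 0.47) and the alpha and beta sums r = 0.455 (rho = 0.432), with jackknife SE of 0.116, 0.173 and 0.164. Without the 2 mice farthest from the median the values were 0.58, 0.516 and 0.377. With the first principal component of all tested genes the r was 0.441 for the alpha sum, 0.704 for the beta sum and 0.177 for the gamma sum (the sign of a component is arbitrary). With the 23 genes of promoter looping and silencing it was 0.257, 0.417 and 0.359 for the same sums. The beta sum had r = -0.452 with 8 microglia markers and -0.373 with 8 GABAergic interneuron markers, and with the other marker lists the r of the 3 sums lay closer to 0 than that of the alpha sum with microglia markers (-0.309). The part of these in the relation between the clusters was not tested.

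Of the genes outside the clusters, those closest to the alpha sum over the 48 mice were Myh10 (r = 0.81), a non-muscle myosin heavy chain, Nalcn (0.785), a sodium leak channel, Aars (0.784), an alanyl-tRNA synthetase, Vcp-rs (0.775) and Sgip1 (0.773), an endocytic adaptor. Genes close to the beta sum included Plcb1 (0.78), a phospholipase C, Mtpn (0.776), Slc30a4 (0.767), a zinc transporter, and Rab14 (0.761), a membrane-traffic GTPase. The gamma sum was closest to Lrrc4 (0.799), a synaptic adhesion protein, Mfn2 (0.722), a mitochondrial fusion protein, Slc1a4 (0.714), a neutral amino acid transporter, Tspyl4 (0.682) and Fbxw11 (0.682), an F-box protein. An r over 0.5 was reached by 3.72%, 4.95% and 1.27% of the genes considered for the alpha, beta and gamma sums. The alpha and gamma sums lean on the C-type genes named above, and so do these values.

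Genes that act on the clusters or with their proteins were mostly not called. Of 23 tested genes of promoter looping and silencing, among them Ctcf, the cohesin subunits Rad21 and Smc3, and the chromatin protein Smchd1, 0 were called in any comparison between genotypes, and 2 were higher in males, where 2.73% of all genes were, Tet2, a methylcytosine oxidase (log2 fold change 0.08 ± 0.024, adjusted p = 0.0277), and Trim28, a corepressor (0.05 ± 0.016, adjusted p = 0.0491). The smallest p over the 6 genotypes in this list were those of Zfp143 (adjusted p = 0.481) and Smchd1 (adjusted p = 0.586). Of 20 signalling and processing partners, such as the kinases Fyn and Ptk2 and the WAVE complex, 0 were called between genotypes and Prkca, a protein kinase C, was lower in males (-0.09 ± 0.026, adjusted p = 0.0384), where 2.83% of all genes were. Its 6-genotype adjusted p was 0.603, and that of Ptk2b was 0.658. Of 12 non-clustered protocadherins, single genes elsewhere in the genome, 0 were called in males against females or between genotypes, and the smallest 6-genotype p values were those of Pcdh10 (adjusted p = 0.658) and Pcdh15 (adjusted p = 0.675). Their median log2 fold change in males against females was 0.02.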

How the data were processed

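Cortex RNA was sequenced from 48 mice with stranded libraries, per the labels' protocols. The tools listed in the submitters' processing notes are HTSeq 0.12.3, SAMtools 1.10 and STAR 2.7.5c, and the build listed there is GRCm38. The annotation release and strand setting are not given in the sources used here. The authors deposited whole-number counts per gene and, beside them, FPKM; the FPKM gave the exon length of GENCODE M21 in all 58 members with M21 coordinates. How reads in shared exons were assigned is not given in the sources used here.

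The counts were tested with edgeR 4.0.16 (R 4.3.3), by TMM scaling, filterByExpr and a quasi-likelihood fit with genotype and sex over all 48 mice. An adjusted p under 0.05 over 20010 genes made a call. The filter kept 99.963% of counts. CPM uses TMM-scaled totals, and correlations use log2 CPM with a prior count of 1. P-values treat mice as independent, also mice that share a stem of the column name. The test was checked on simulated counts. Alternatives were DESeq2 1.42.0, limma 3.58.1, limma on log2(FPKM + 0.1) and log2(FPKM + 1), other scalings, filters, covariates and left-out libraries.

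The members and gene lists were chosen with earlier results of these data known. Named are the top 3 genes by FPKM of each cluster, the C-type genes, called members or else the smallest p of a comparison, members filtered out, the highest and lowest pairs, the 5 closest outside genes (mean CPM of at least 1, no gene models; 1 of these is not reported here), Htt, Msh3, and list genes called or with the 2 smallest 6-genotype p. Genes named in other sentences are examples chosen after their values were seen.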

Additional observations from a re-analysis of the deposited data

Results flagged for a closer look

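In 156 groups of values (26 members or cluster sums in 6 genotypes), 11 held a mouse far from the others of its genotype by Dixon's test, which chance gives in about 1 of 20. In the alpha cluster, Pcdha5 was 6.11 CPM in Q140 X Msh3+/- F2, with the others of that genotype between 4.57 and 5.07. Pcdha8 was 1.55 CPM in Q140 X Msh3-/- F3 (others 0.114 to 0.771) and 1.74 CPM in Q140 X Msh3+/- F4 (others 0.0762 to 0.748), and both of these mice are females. Pcdhac2 was 41.0 CPM in WT F1 (others 47.9 to 52.9). In the beta cluster, Pcdhb8 was 2.37 CPM in Q140 X Msh3+/- M2 (others 3.94 to 4.801). In the gamma cluster, Q140 X Msh3+/- F1 was low for Pcdhga11 at 18.7 CPM (others 23.7 to 26.3) and high for Pcdhga5 at 15.1 CPM (others 10.4 to 12.4). Pcdhga5 was 9.45 CPM in Q140 M4 (others 12.9 to 14.8), Pcdhga8 (ENSMUSG00000023036) was 13.7 CPM in Q140 X Msh3-/- F4 (others 11.2 to 12.2), and Pcdhgc3 was 59.7 CPM in Msh3-/- M4 (others 69.7 to 73.6). The gamma cluster sum was 469 CPM in Q140 X Msh3+/- M1 (others 433 to 445).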

How the results depend on the processing

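The 8 settings added after seeing the data were run for males against females only. Under the 14 listed settings, the count of called members was 0 in every comparison between genotypes. It was also 0 in the 6-genotype test under each listed setting that included this test. This holds for the fit with a replicate block of sex and replicate number (0 members called in each), although same-numbered mice of different groups did not deviate together (mean r -0.0312 over 115 pairs, against 0.0043 for other pairs). Mice of different groups with the same stem of the column name had a mean r of 0.0434 (23 pairs). The 10 members called between the sexes became 7 to 13 under the other listed settings, with 13 in DESeq2 and 7 with a random block for the stem of the column name. They fell to 5 without all Msh3+/- mice, to 6 without all Q140 X Msh3+/- mice and to 6 without all Q140 X Msh3-/- mice. Leaving out a genotype removes samples, and fewer mice remain to test. No called member changed direction. The 30 cluster medians moved by less than the spread between mice in 270 of 270 values. That spread was 0.108, 0.072 and 0.072 log2 units for the alpha, beta and gamma clusters. Most medians were smaller in size than this, so a median could change sign and still count as unmoved. The count therefore does not show that the medians are stable. Of 60 alternative covariation values 1 moved beyond its jackknife SE, the r of the alpha and beta sums in females alone, at 0.23. The cause was not tested. Pcdha8 was not tested under the stricter filter of at least 1 CPM in at least 7 mice. Counts were low for Pcdha8, at 26.4 per library, and the filter on low counts kept Pcdhb1 and both Pcdhgb8 IDs from being tested.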
